A study of Mus musculus with 13 samples.

Results

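The genes described here are 9 genes of cohesin, the ring-shaped protein complex that holds sister chromatids together, chosen by name: the meiotic paralogues Stag3, Smc1b and Rec8, and the general genes Stag1, Stag2, Smc1a, Smc3, Rad21 and Nipbl. All 9 are among the 20662 gene symbols listed in both tables. RNA was sequenced from germ cells of the testes of C57BL/6 mice aged 8 weeks, described as wild type: spermatogonia (2 samples), spermatocytes (5), spermatids (5) and mature sperm (1). Only the spermatogonial samples, titled KIT_AGSC and THY1_AGSC, were analysed here, with 1 library each. No values of the remaining 11 samples were used. Both share strain, age and tissue and carry no stated treatment, and their titles name surface antigens: KIT, the stem cell factor receptor of differentiating spermatogonia, and THY1, used to enrich undifferentiated ones. The number of animals behind each library and the way the cells were isolated are not stated in the labels. Values were taken as FPKM, a level per transcript length and per total fragments.

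In every cohesin ring an SMC1 protein and SMC3 form a V-shaped pair that a kleisin subunit closes, and an SA subunit binds the kleisin. In mitotic cells these places are filled by SMC1A, RAD21 and either STAG1 or STAG2, whereas germ cells entering meiosis add SMC1B, the kleisins REC8 and RAD21L, and STAG3. The meiotic rings organise the chromosome axis on which the synaptonemal complex assembles, and REC8 near the centromere is protected from cleavage until the second meiotic division. NIPBL loads cohesin of either kind onto chromatin.

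The antigen transcripts and the column headers of the tables ran against the sample titles. Kit was listed at 0 FPKM in the KIT-labelled library and at 36.7 FPKM in the THY1-labelled library, while Thy1 was at 78.8 and 0.723 FPKM, and the value column of each sample is headed with the other antigen's name. Directions follow the titles all the same, the libraries are called KIT-labelled and THY1-labelled throughout, and exchanging the titles would turn every direction. The libraries also differed in depth: the estimated worth of 1 fragment, taken at percentile 5 of FPKM multiplied by transcript length, was 6.41 times larger in the KIT-labelled library. Genes used by nearly every cell were listed at 0: Ppia in both libraries, Hprt in the KIT-labelled and Gapdh in the THY1-labelled library. A 0 is therefore given only as listed. Of the markers of spermatogonia fixed for the cell type check, 4 of 13 were listed at 0 in the KIT-labelled library and 1 in the THY1-labelled library, with Zbtb16 at 0 in both. Nanos3, Nanos2, Gfra1 and Id4, genes of undifferentiated spermatogonia, were higher in the KIT-labelled library. Their levels were 118 against 2.74, 54.1 against 1.49, 3.91 against 0.102 and 3.75 against 0.936 FPKM. Stra8, induced by retinoic acid, and the germ cell genes Dazl and Ddx4 were higher in the THY1-labelled library, at 34.1 against 0.743, 75.2 against 1.70 and 140 against 1.77 FPKM. Kit, Uchl1 (49.5 against 3.26 FPKM), Sohlh2 and Dmrt1 ran the same way, and Sohlh1 was within the fold. With 1 library per group no spread between replicates is known, and each difference below compares 2 libraries without a test.

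All 9 cohesin genes, meiotic and general alike, had the higher level in the THY1-labelled library. Each passed the fold of 2 on the log2(FPKM + 1) scale, against 41.1% of the 15573 genes whose larger value was at least 1 FPKM. Over those genes another 39.5% were at least 2-fold higher in the KIT-labelled library, where no cohesin gene was. The median difference, labelled KIT minus labelled THY1, was -5.05 for the 3 meiotic paralogues and -4.67 for the 6 general genes, beside -0.0026 for all genes. The order of the class medians was not stable, since with a pseudocount of 0.1 they were -5.37 and -6.45. In such bulk RNA, fewer cells of a type and less RNA per cell cannot be told apart.

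**Figure D1:**
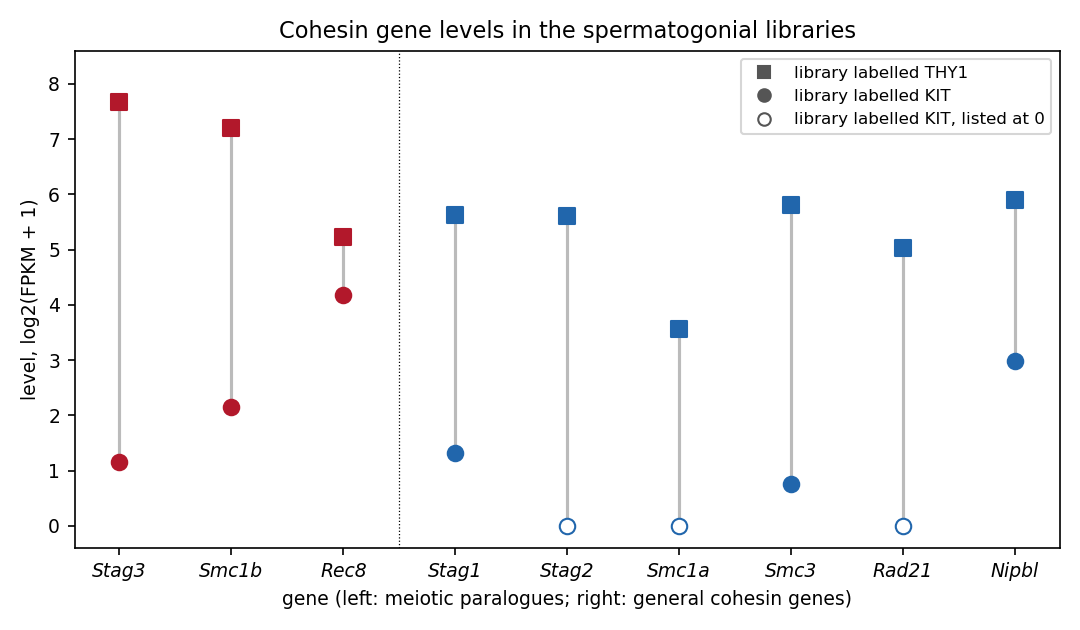
Level of each cohesin gene as log2(FPKM + 1) in the THY1-labelled library (squares) and the KIT-labelled library (circles, open where listed at 0), 1 library each, meiotic paralogues in red and general genes in blue. Every square lies above its circle, and the gap is smallest for Rec8, whose difference is -1.06.

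Among the meiotic paralogues, Stag3, the SA subunit of meiotic cohesin, was at 1.24 FPKM in the KIT-labelled library and at 203 FPKM in the THY1-labelled library. It was the highest of the 9 genes in the latter, where it exceeded 97.6% of the genes above 0, and its log2 difference of -6.51 was the largest in size. The value in the KIT-labelled library corresponds to an estimated 1.91 fragments, so the 164-fold ratio of FPKM rests on few reads there. Smc1b, the meiotic SMC1, stood at 3.43 FPKM in the KIT-labelled library and at 146 FPKM in the THY1-labelled library. It ranked next to Stag3 in the THY1-labelled library, and its log2 difference was -5.05.

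Rec8, the meiotic kleisin that separase cuts to release meiotic chromosomes, departed from both. It was at 17.0 FPKM in the KIT-labelled library and at 36.6 FPKM in the THY1-labelled library, a ratio of 2.15. Rec8 was thus the highest of the 9 genes in the KIT-labelled library and only at rank 7 in the THY1-labelled library. Its log2 difference of -1.06 lay just past the fold of 2, and it was -0.80 after scaling to the same upper quartile and -0.85 after scaling to the sum without Rpph1, the RNase P RNA that dominates both tables. Under those scalings 8 of the 9 genes passed, beside 38.7% and 39.1% of all genes. An estimated 13.6 fragments stood behind Rec8 in the KIT-labelled library, more than behind Stag3 or Smc1b (5.07).

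The promoters of the SA and SMC1 paralogue pairs and of Rec8 are shown because these genes share a direction of difference while Rec8 differs least. That of Smc3 was searched as well but is not shown. Sequences come from RefSeq on GRCm38.p6, in a table that matched 6 of the 9 genes, and run from 250 bases before to 50 bases after the annotated start. They are Stag3 at chr5:138280259-138280558 (plus strand), Stag1 at chr9:100643198-100643497 (plus strand), Smc1b at chr15:85131908-85132207 (minus strand), Smc1a at chrX:152016178-152016477 (plus strand) and Rec8 at chr14:55617916-55618215 (plus strand). Capitals mark matches to the E-box CACGTG and to the E2F-type core TTCCCGC. Both kinds of site are known from the silencing of germline genes in somatic cells.
Stag3: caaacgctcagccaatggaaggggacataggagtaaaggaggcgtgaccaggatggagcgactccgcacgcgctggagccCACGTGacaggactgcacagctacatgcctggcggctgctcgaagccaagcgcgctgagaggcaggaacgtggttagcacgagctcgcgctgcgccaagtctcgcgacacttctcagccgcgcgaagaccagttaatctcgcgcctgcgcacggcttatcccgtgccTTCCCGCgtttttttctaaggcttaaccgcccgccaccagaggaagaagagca
Stag1: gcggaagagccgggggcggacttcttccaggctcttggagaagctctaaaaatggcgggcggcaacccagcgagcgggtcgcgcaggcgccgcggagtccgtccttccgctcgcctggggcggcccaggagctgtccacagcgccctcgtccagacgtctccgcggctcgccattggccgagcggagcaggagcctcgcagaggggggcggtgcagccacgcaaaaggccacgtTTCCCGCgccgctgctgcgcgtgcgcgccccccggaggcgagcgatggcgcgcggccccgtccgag
Smc1b: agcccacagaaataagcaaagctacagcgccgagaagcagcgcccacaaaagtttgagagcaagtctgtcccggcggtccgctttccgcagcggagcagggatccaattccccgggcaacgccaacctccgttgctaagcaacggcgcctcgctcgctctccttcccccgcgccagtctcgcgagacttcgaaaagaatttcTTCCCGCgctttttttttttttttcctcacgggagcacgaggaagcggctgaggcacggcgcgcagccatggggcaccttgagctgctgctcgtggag
Smc1a: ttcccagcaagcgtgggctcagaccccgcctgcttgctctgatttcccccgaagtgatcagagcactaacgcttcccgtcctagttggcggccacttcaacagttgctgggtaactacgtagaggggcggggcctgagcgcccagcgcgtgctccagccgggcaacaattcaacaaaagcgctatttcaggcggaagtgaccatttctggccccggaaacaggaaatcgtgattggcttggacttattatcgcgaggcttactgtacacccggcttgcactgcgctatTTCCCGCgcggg
Rec8: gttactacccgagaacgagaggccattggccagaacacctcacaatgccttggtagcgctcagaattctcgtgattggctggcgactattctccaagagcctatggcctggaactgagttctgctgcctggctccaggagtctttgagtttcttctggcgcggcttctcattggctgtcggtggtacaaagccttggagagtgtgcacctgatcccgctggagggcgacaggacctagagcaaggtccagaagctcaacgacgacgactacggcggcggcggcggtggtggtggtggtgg

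The letters TTCCCGC, searched on both strands, occurred in the promoters of Stag3, Smc1b, Stag1 and Smc1a, 4 of the 6 cohesin promoters, against 4.6% of the 32851 promoters in the table. The match was thus present in the general as well as the meiotic partner of both pairs and absent from Rec8 and Smc3. Smc3, without the match, had a log2 difference of -5.06, close to the -5.05 of Smc1b, which holds it. A link between the match and the size of the difference was not tested. It began 3 bases before the start in Stag3, 48 before in Smc1b, 16 before in Stag1 and at base 39 counted from the start in Smc1a. In each of these the next base was a G, and TTCCCGCG, a longer form singled out after the sequences were seen, occurred in 1.01% of all promoters. CACGTG occurred in 1 of the 6, that of Stag3, 170 bases before the start, against 7.15% of all promoters, and does not overlap the other match. CNCCTCAG, known as a motif bound by STRA8 and MEIOSIN at meiotic entry, occurred in 0 of the 6 against 7.94%. The 6 cohesin promoters ranged from 58.3% to 73.7% G and C, beside a mean of 53.8% over all promoters, and the part of base composition in these counts was not tested.

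The 6 general genes lay between 10.8 and 58.4 FPKM in the THY1-labelled library, and 3 of them were listed at 0 in the KIT-labelled library. Stag1, an SA subunit of mitotic cohesin, was at 1.49 FPKM in the KIT-labelled library and at 48.6 FPKM in the THY1-labelled library. Stag2, the other general SA subunit, was listed at 0 and at 47.9 FPKM, so the pair had nearly equal levels in the THY1-labelled library. Smc1a, the general SMC1, was listed at 0 and at 10.8 FPKM, the lowest level of the 9 genes in the THY1-labelled library.

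Smc3, which sits in mitotic and meiotic rings alike, was at 0.683 FPKM in the KIT-labelled library and at 55.3 FPKM in the THY1-labelled library. Rad21, the general kleisin, was listed at 0 and at 31.5 FPKM. Nipbl, the loader, was at 6.88 and 58.4 FPKM, and its log2 difference of -2.91 was the smallest in size among the general genes. After Rec8 it had the highest level in the KIT-labelled library.

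The values of the KIT-labelled library rest on few fragments. For the 6 genes above 0 there, the estimate ran from 1.21 fragments for Smc3 and 3.36 for Stag1 up to 23.7 for Nipbl, whereas in the THY1-labelled library it ran from 118 for Smc1a to 2000 for Stag3. For the 3 genes listed at 0, the level seen in the THY1-labelled library would have given an estimated 18.5 fragments of Smc1a, 45.5 of Rad21 and 108 of Stag2 at the depth of the KIT-labelled library. Stag2 shares exon bases with Gm37564 on the opposite strand, and no label says whether counting used the strand.

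Stag2 and Smc1a are X-linked, and X-linked genes of similar level were often listed at 0. Of the 6505 genes whose level in the THY1-labelled library lay between those of Smc1a and Stag3, 65.8% were at least 2-fold higher there and 15.7% were listed at 0 in the KIT-labelled library. Over 142 X-linked genes in that range 47.2% were listed at 0, and over 5567 autosomal genes 14.7% were. Rad21, on chromosome 15, is the autosomal cohesin gene among the 3 at 0. The fold of 2 was passed toward the THY1-labelled library by 71.5% of the genes in the range with a coding transcript of 4000 bases or more and by 61.2% of those under 1000 bases, while 9.58% of the long and 34.0% of the short genes were at 0 in the KIT-labelled library. Of the 9 cohesin genes only Rec8 (2184 bases) and Rad21 (3956 bases) had a longest coding transcript under 4000 bases, and the part of length in the result was not tested.

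**Figure D2:**
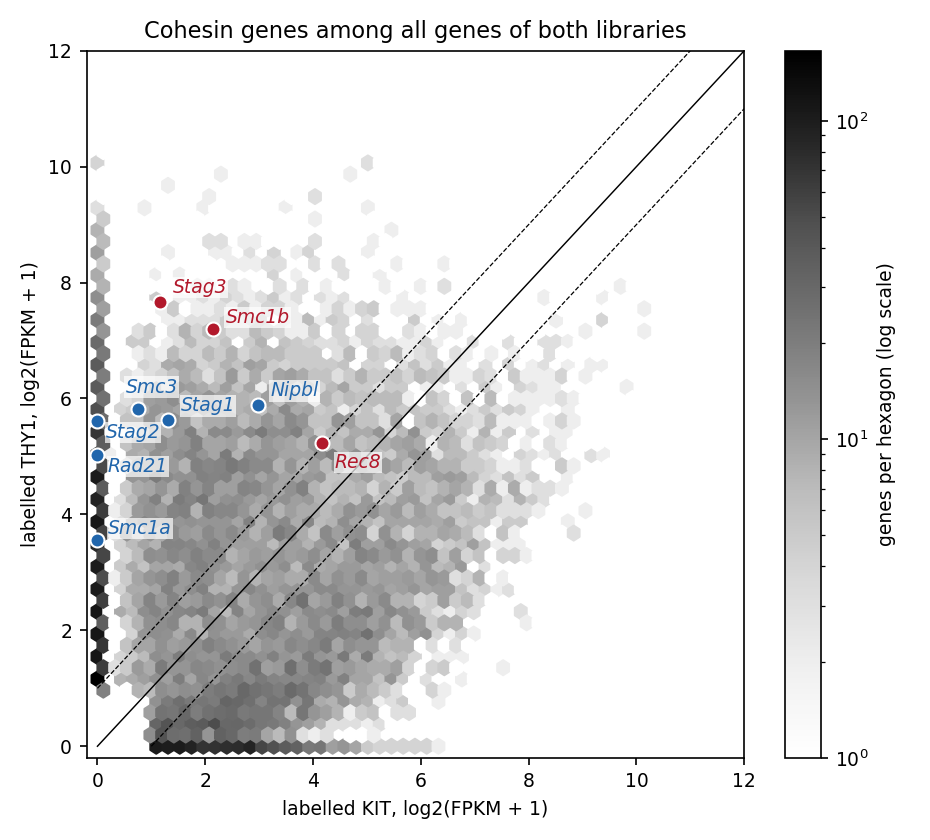
Level of each gene as log2(FPKM + 1) in the KIT-labelled library (x axis) and the THY1-labelled library (y axis), with the 15573 genes at or above 1 FPKM as grey hexagons (4 genes lie beyond the axes), meiotic cohesin genes in red and general ones in blue. Dashed lines mark a fold of 2, and all 9 cohesin genes lie above the upper one, Rec8 close to it.

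Within a library, the share of a paralogue set does not depend on scaling between libraries. In the THY1-labelled library the meiotic form made up the larger part of each set: Stag3 was 67.7% of the summed FPKM of Stag1, Stag2 and Stag3. Smc1b was 93.1% of Smc1a and Smc1b there, 13.6 times the level of Smc1a. Rec8 was 53.8% of Rad21 and Rec8, so the kleisins were the most even set.

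In the KIT-labelled library the sets did not share 1 pattern. Stag3 was 45.4% of its set, below Stag1, on an estimated 1.91 and 3.36 fragments. Smc1b and Rec8 were 100% of theirs, because Smc1a and Rad21 were listed at 0. Rad21l, the second meiotic kleisin, deposited under the older symbol Gm14160, was listed at 0 in the KIT-labelled library and at 17.0 FPKM in the THY1-labelled library. Counted with Rec8, it brought the meiotic share of the kleisins in the THY1-labelled library to 63.0%.

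**Figure D3:**
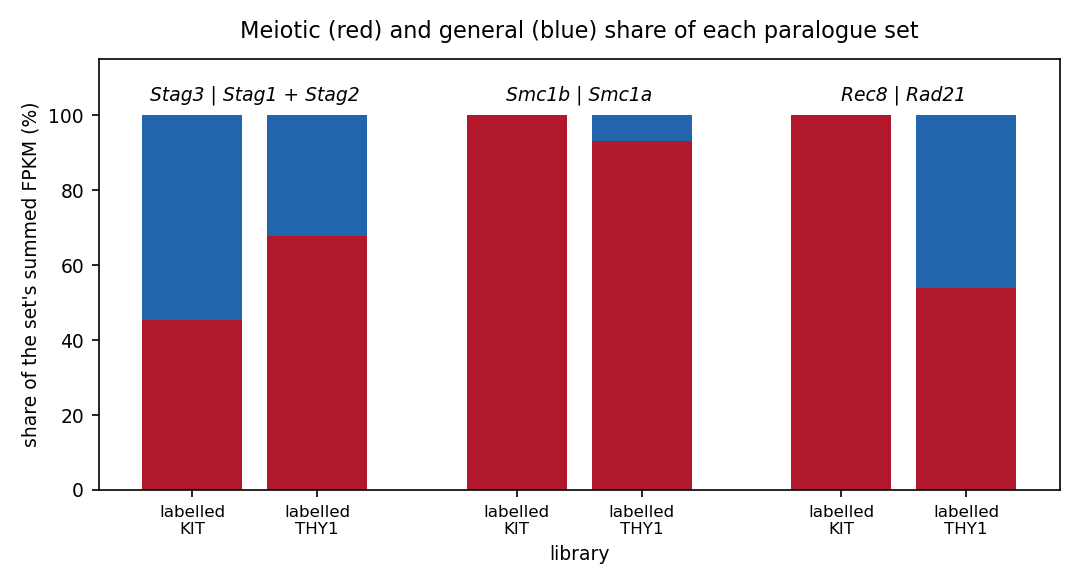
Share in percent of the summed FPKM of each paralogue set held by the meiotic form (red) and the general form (blue), for 1 library labelled KIT and 1 labelled THY1. The meiotic share is above 50% in all bars except that of Stag3 in the KIT-labelled library, at 45.4%.

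Summed over paralogues, the places of the ring also ranked differently. In the THY1-labelled library the SA subunits summed to 299 FPKM, the SMC1 subunits to 157, the kleisins Rad21 and Rec8 to 68.1, and Smc3 stood at 55.3 FPKM. In the KIT-labelled library the kleisins led with 17.0 FPKM, all of it Rec8, followed by the SMC1 subunits at 3.43, the SA subunits at 2.73 and Smc3 at 0.683 FPKM. Smc3 was thus the lowest in both, below the summed SMC1 partners with which it pairs. In the KIT-labelled library this order rests on few fragments, an estimated 1.21 of Smc3 and 5.07 of Smc1b. These are RNA levels per length and say nothing of protein amounts.

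Other genes of the cohesin pathway were counted in the same way. Of 18 such genes besides Nipbl, 12 passed the fold of 2 toward the THY1-labelled library, 3 toward the KIT-labelled library and 3 were within it, with a median difference of -2.05. Without the kleisin Rad21l, a ring subunit in this list, 11 of 17 regulators passed toward the THY1-labelled library (median -1.94). The shares over all genes were 41.1% and 39.5%. The share toward the THY1-labelled library was 65.8% among genes in the cohesin genes' range of levels there, from 10.8 to 203 FPKM. Several regulators lay below that range, so this share does not cover the whole list. Every gene of the list inside the range passed toward the THY1-labelled library: Mau2, Rad21l, Wapal, Pds5a, Pds5b, Esco2, Espl1, Pttg1, Meikin and Ctcf. Of those below it, Cdca5 and Esco1 passed the same way and Hdac8, Sgol1 and Ctcfl the other way. Sgol2, Plk1 and Aurkb, also below it, were within the fold. Mau2, the partner of NIPBL, was at 10.3 FPKM in the KIT-labelled library and 28.7 in the THY1-labelled library. The release factor Wapal was at 7.76 and 106 FPKM, and its partners Pds5a and Pds5b were at 15.2 and 71.2 and at 1.15 and 44.9 FPKM. The acetyltransferases that stabilise cohesion, Esco1 (0.778 and 5.56 FPKM) and Esco2 (0.622 and 15.4 FPKM), ran the same way. So did Espl1, the separase that cuts the kleisin, at 2.16 and 18.1 FPKM, and its inhibitor Pttg1, at 4.53 and 110 FPKM. Cdca5, the sororin that counters release, was listed at 0 and at 6.34 FPKM. Meikin, a meiotic kinetochore protein deposited as 4930404A10Rik, was at 1.55 and 24.1 FPKM.

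The 3 regulators higher in the KIT-labelled library were Ctcfl, Sgol1 and Hdac8. Ctcfl, the germline paralogue of the boundary factor CTCF, was at 100.4 FPKM in the KIT-labelled library against 4.45 in the THY1-labelled library, whereas Ctcf, which halts cohesin on DNA, was at 4.03 against 18.3 FPKM. Sgol1, a shugoshin that shields mitotic cohesin, was at 10.5 against 3.16 FPKM, and Sgol2, the shugoshin tied to the protection of REC8, was at 1.42 against 3.06. On the log2(FPKM + 1) scale Sgol2 was within the fold, although its ratio of FPKM was 2.15, the same as that of Rec8. Also within it on that scale were the mitotic kinases Plk1, at 3.04 against 6.96 FPKM, and Aurkb, at 9.35 against 4.47. With a pseudocount of 0.1, 14 of the 18 genes passed toward the THY1-labelled library and 4 toward the other, beside 42.4% and 41.9% of all genes. Hdac8, which removes the acetyl mark from SMC3, was at 7.30 against 2.07 FPKM.

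Related complexes were counted beside the same shares of 41.1% over all genes and 65.8% in that range of levels, which also does not cover all of their genes. Of 8 condensin genes, which compact mitotic and meiotic chromosomes, 6 were at least 2-fold higher in the THY1-labelled library and 2 were within the fold (median -2.00), among them Smc2 at 0.585 FPKM in the KIT-labelled library against 37.5 and Smc4 at 25.0 against 126. Of 7 genes of the SMC5/6 repair complex 6 reached 1 FPKM, and 4 of these were higher in the THY1-labelled library, with Smc6 at 0.643 against 103 FPKM, and Eid3 was the reverse at 21.0 against 0.715. Ndnl2, another gene of this complex, was listed at 0 in both. All 4 chromosome axis genes, whose proteins assemble on cohesin, were higher in the THY1-labelled library, with Sycp2 at 3.44 against 155 FPKM and Sycp3 at 111 against 286.

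**Figure D4:**
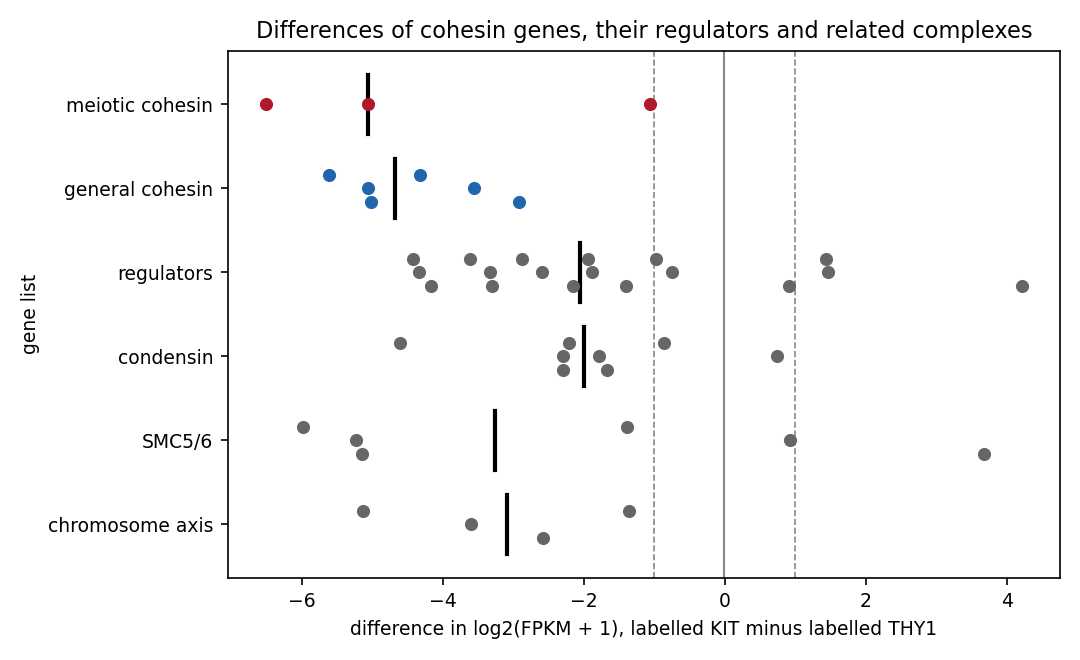
Difference in log2(FPKM + 1), labelled KIT minus labelled THY1, for each gene (points) of the cohesin classes, their regulators and related complexes, with list medians (black bars), the median of all genes (grey line) and the fold of 2 (dashed lines). Cohesin points all lie left of the dashed line at -1, while the regulators reach from -4.41 to 4.22.

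Marker lists of other cells ran in different directions. All 8 spermatocyte markers were at least 2-fold higher in the THY1-labelled library, where they summed to 3414 FPKM against 145 in the KIT-labelled library. Meig1 made up 2410 of the 3414 FPKM and Sycp3 111 of the 145. Sycp3 and Hormad1 are also among the axis genes above. Of the 8, Dmc1, Hormad1 and Adam2 were listed at 0 in the KIT-labelled library. All 5 spermatid markers ran the other way, at 628 against 4856 FPKM. Among the somatic lists, 4 of 5 measured Leydig cell genes were higher in the THY1-labelled library, with Hsd3b6 and Hsd17b3 at 0 in the KIT-labelled library. The 5 summed to 6305 FPKM in the THY1-labelled library against 141. Star was within the fold at 181 against 121 FPKM and made up most of the smaller sum. Of 5 measured Sertoli cell genes, 2 were higher in the THY1-labelled library and 3 in the KIT-labelled library, and their sums of 868 against 18.7 FPKM rest on Clu (848 against 1.62), while Sox9 (0.227 against 2.87), Amh (0.227 against 6.71) and Wt1 (1.45 against 5.30) ran the other way. Of 5 macrophage genes, 3 were higher in the THY1-labelled library and Cd68 and Csf1r were within the fold, with sums of 942 against 57.0 FPKM that rest on Aif1 (880 against 24.5). The 4 peritubular genes summed to 49.3 against 180 FPKM, and 3 of them were higher in the KIT-labelled library. The part of other cells in the cohesin levels was not tested.

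The genes whose pair of levels lay nearest to each meiotic paralogue were found by distance in log2(FPKM + 1) over the 2 libraries, a likeness that rests on 2 values. For Smc1b they were Anxa1 (distance 0.019), Lrrc9 (0.051) and the axis gene Sycp2 (0.084). For Stag3 they were Etf1 (0.079), Idh1 (0.10) and Mtch2 (0.11). For Rec8 they were Reep2 (0.048), Haghl (0.054) and Serinc1 (0.070).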

How the data were processed

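Gene values of the spermatogonial samples were analysed. The authors deposited 1 table per library with a symbol and a decimal value per gene, taken as FPKM because the submitters' processing notes name Cufflinks 2.1.1, beside TopHat 1.4.1, CASAVA and build mm9, without roles. No source used here gives the annotation, the filters or the treatment of reads with several alignments. Per the labels' protocols, ribosomal RNA was depleted and libraries were directional.

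Differences were taken as log2(FPKM + 1), with a pseudocount of 1, for genes reaching 1 FPKM in either library, and called at a fold of 2. Transcript lengths came from GENCODE M21 and promoters from RefSeq, both on GRCm38, so they were used for lengths, chromosome names, exon overlap and sequences only. The worth of 1 fragment was estimated on single-transcript genes over 1000 bases. Depth per library is otherwise unknown. The ratio was 6.46 at percentile 2 and 5.98 at percentile 10.

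The members and lists were chosen with earlier results of these data known. Named genes are the members, the listed genes, the antigens and the 3 nearest patterns per meiotic paralogue, the latter without predicted genes and RIKEN clones; Gm37564 is named for its overlap with Stag2 and Rpph1 for the scaling. Insl3 and Rhox5, listed as markers, were not used here. Alternatives were another pseudocount, 3 scalings, 2 filters, genes above 0 in both libraries and other paralogue sets; background shares within the members' range of levels and TTCCCGCG were added after seeing the data. The rule for the fold calls was checked on simulated data without values of 0, which gives no error rate for these libraries. The work was done in Python 3.11.15 with pandas 2.3.3, numpy 2.4.6 and matplotlib 3.10.9.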

Additional observations from a re-analysis of the deposited data

How the results depend on the processing

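The count of cohesin genes at least 2-fold higher in the THY1-labelled library was 9 with a pseudocount of 0.1, after scaling to a median ratio of 1, with no filter and with a minimum of 5 FPKM, and 8 after scaling to the sum without Rpph1 or to the same upper quartile. Among genes above 0 in both libraries, which leaves out Stag2, Smc1a and Rad21, the count was 6 of 6 (33.9%). These scalings shifted the values of the THY1-labelled library by 0.56, -0.27 and -0.22 on the log2 scale (median ratio, upper quartile, sum without Rpph1). Over these settings, 10 to 14 of the cohesin pathway genes were higher in the THY1-labelled library and 3 to 4 in the KIT-labelled library. The shares over all genes ran from 31.0% to 46.2% and from 29.8% to 42.0%. Among condensin, SMC5/6 and axis genes, the count higher in the KIT-labelled library was 1, and it was 2 with a pseudocount of 0.1 and 3 after scaling to the upper quartile. Against Stag2 alone, the share of Stag3 was 100% in the KIT-labelled library and 80.9% in the THY1-labelled library, and with Stag1 as the only general gene above 0 in both it was 80.7% in the latter. With Rad21l, the meiotic kleisin share was 63.0% in the THY1-labelled library. The shares of Smc1b and Rec8 could not be recomputed among genes above 0 in both libraries. No paired analysis was possible because each spermatogonial group has 1 library. The depth of the KIT-labelled library limits the ratios of Smc3, Stag3, Stag1 and Smc1b most, and the cohesin genes listed at 0 there have no ratio.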
